A study of Mus musculus with 6 samples.

Results

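Cells sorted from adult mouse pituitary glands by the history of Tshb promoter activity were compared with a whole adult gland. The sorted library was made from 42 pooled glands of mice carrying Tshbcre and ROSAYFP, a yellow fluorescent reporter that Cre switches on permanently, and the fluorescent fraction was collected after collagenase dispersal. The other library was made from 1 nontransgenic gland, labelled as holding all pituitary cells. Animals were 7 weeks old, the sources used here leave their sex unstated, and 250 ng of RNA per library was depleted of ribosomal RNA so that mRNA and long non-coding RNA (lncRNA) were both captured. A cell that once used the Tshb driver stays marked, so the sort follows lineage and not only present hormone production. Genotype, sorting, dispersal and pooling all differ between the libraries and cannot be told apart.

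The members were all genes named in both tables, 50062 of the 50348 gene names in the 6 libraries of the series. Of these, 15790 reached 1 scaled FPKM (a fragment count per kilobase of transcript and per depth of the library, here divided by 1 factor per library) in at least 1 of the 2 libraries and were compared. Each side was 1 library, so no difference has a replicate check and no test was made. The deposited bounds quoted with some values cover read counting and assignment within a library only. A difference is that of log2(scaled FPKM + 1), sorted minus whole gland, and a gene was counted as apart at 4-fold or more on that scale, which understates low genes. Relative depth was 1.16 in the sorted library against 1 in the whole gland, and 13852 and 13907 genes reached 1 scaled FPKM. Scaling left the median difference of all compared genes at -0.02.

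Thyrotropes are the pituitary cells that make thyroid-stimulating hormone (TSH), a heterodimer of the TSH-specific beta subunit Tshb and the alpha subunit Cga, which gonadotropes share. Hypothalamic TRH acts on the receptor Trhr, and the released TSH drives the thyroid, whose hormone feeds back on the thyrotrope after local activation by the deiodinase Dio2. Secreted hormones are sorted with granins into dense-core granules and released when calcium enters the cell. Prohormone convertases trim those hormones that are made as prohormones.

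The DNA upstream of 7 genes that the comparison turns on is shown so that the letters can be set beside the levels: 4 of the 5 thyrotrope markers, and the 3 secretory granule genes that held TGACGTCA among those looked up. The windows hold the 250 bases before the annotated start, from RefSeq on the build GRCm38.p6, with Tshb at chr3:102782715-102782964 on the minus strand, Cga at chr4:34893529-34893778 on the plus strand, Dio2 at chr12:90739039-90739288 on the minus strand, Cck at chr9:121495695-121495944 on the minus strand, Chgb at chr2:132781392-132781641 on the plus strand, Scg2 at chr1:79440027-79440276 on the minus strand and Pcsk1 at chr13:75089607-75089856 on the plus strand. Capitals mark TGACGTCA, the cyclic AMP response element, which reads the same on both strands, and AGATAA or its other strand TTATCT, a motif of GATA factors.
Tshb: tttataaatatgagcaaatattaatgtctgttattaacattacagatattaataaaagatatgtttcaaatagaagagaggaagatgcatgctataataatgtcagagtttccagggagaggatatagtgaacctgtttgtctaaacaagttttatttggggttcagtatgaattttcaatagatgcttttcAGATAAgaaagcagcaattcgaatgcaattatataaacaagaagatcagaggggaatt
Cga: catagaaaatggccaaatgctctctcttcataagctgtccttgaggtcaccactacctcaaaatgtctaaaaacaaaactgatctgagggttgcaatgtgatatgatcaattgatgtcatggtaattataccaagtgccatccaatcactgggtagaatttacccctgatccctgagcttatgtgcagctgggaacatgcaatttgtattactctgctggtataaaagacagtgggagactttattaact
Dio2: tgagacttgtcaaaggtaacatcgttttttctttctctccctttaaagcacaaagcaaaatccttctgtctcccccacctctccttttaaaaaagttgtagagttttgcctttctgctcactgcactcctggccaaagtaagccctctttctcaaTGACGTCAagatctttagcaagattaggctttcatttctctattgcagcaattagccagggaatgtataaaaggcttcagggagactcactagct
Cck: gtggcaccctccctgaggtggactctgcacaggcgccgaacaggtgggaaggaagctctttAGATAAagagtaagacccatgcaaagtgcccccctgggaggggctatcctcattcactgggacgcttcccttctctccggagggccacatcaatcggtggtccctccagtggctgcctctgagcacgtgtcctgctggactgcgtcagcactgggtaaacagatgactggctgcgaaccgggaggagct
Chgb: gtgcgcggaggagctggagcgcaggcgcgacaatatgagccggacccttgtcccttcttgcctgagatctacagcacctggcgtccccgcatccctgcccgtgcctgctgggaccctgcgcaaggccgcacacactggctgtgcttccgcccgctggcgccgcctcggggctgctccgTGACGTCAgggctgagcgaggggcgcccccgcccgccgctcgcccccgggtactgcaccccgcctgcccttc
Scg2: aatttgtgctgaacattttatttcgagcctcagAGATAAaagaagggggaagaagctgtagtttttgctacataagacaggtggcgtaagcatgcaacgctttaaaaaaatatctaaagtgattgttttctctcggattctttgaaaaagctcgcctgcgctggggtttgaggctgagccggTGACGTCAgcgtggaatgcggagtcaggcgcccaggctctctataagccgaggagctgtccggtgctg
Pcsk1: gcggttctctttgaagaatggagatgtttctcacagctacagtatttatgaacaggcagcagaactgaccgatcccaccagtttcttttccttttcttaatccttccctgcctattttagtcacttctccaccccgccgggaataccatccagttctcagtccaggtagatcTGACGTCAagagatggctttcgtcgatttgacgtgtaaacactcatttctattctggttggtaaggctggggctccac
TGACGTCA stood in 1.55% of 32851 promoter windows of the same length and AGATAA in 9.99%. Among 19 genes looked up, 17 were matched, and 4 of them held TGACGTCA: Dio2, Chgb, Scg2 and Pcsk1. AGATAA stood upstream of Tshb, Cck, Scg2 and Resp18. Chga and Scg5, 2 granule genes not shown, held neither. The 19 were chosen with their levels known, and a match describes letters only.

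All 5 thyrotrope markers were higher in the sorted library. Tshb, located on chromosome 3 at 102684621 to 102718175 of mm39, was at 1075 scaled FPKM (bounds 1028 to 1122) in the sorted library and 33.1 (30.1 to 36.4) in the whole gland, a log2 difference of 4.98. Cga on chromosome 4, from 34893779 to 34907374, was at 6546 (6271 to 6820) against 805 (767 to 843), a log2 difference of 3.02, or 2.34 with assembled transcripts, which brought the whole gland to 1289. Both subunits of TSH thus stood far above the whole gland, with bounds that do not meet, and Cga was the more abundant of the pair in either library. Dio2, the activating deiodinase, on chromosome 12 from 90691326 to 90705812, was at 40.4 against 3.87. Trhr, the TRH receptor, on chromosome 15 from 44059314 to 44099308, was at 10.9 against 0.79. Cck, which encodes the peptide cholecystokinin, on chromosome 9 from 121318890 to 121324760, was at 20.7 against 0.411. These 3 had low levels in the whole gland, and their log2 differences were 3.09 for Dio2, 2.73 for Trhr and 3.94 for Cck. As a percent of the summed scaled FPKM of all genes in both tables, Tshb made up 0.211% in the sorted library and 0.00572% in the whole gland, and Cga 1.29% and 0.139%.

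**Figure D1:**
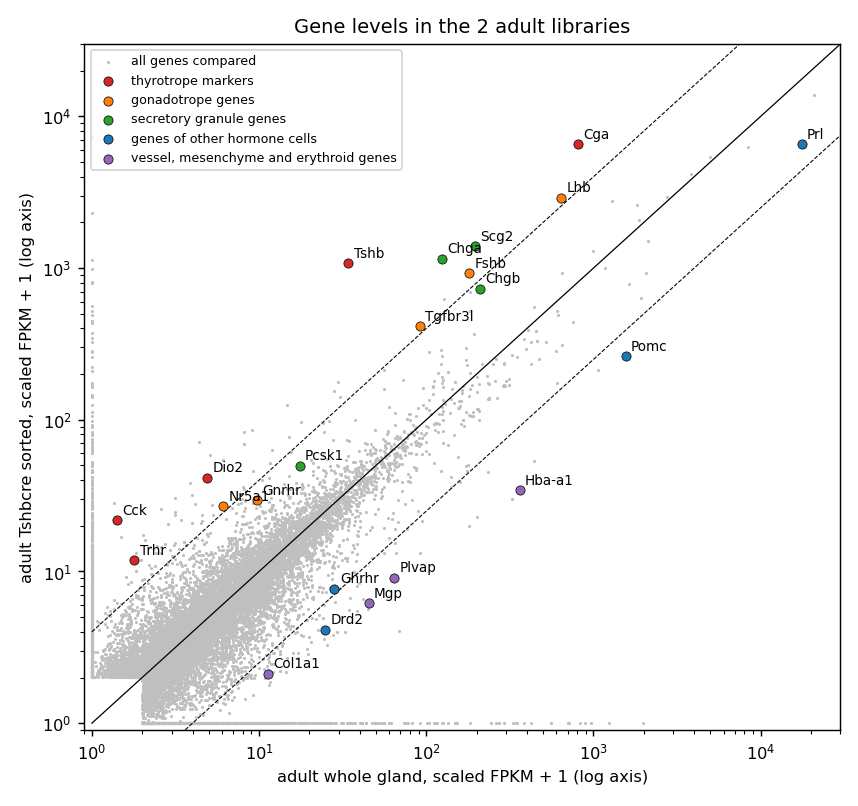
Scaled FPKM + 1 of every compared gene in the adult whole gland (x, log axis) and the adult Tshbcre sorted library (y, log axis), with 22 named genes in colour; the solid line is equality and the dashed lines 4-fold. Tshb (1075 against 33.1) lies farthest above equality among the coloured genes, while Pomc (260 against 1555) and Hba-a1 (33.5 against 360) lie below it.

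Across all genes, 508 of 15790 (3.22%) were 4-fold higher in the sorted library and 605 (3.83%) were 4-fold lower. Over protein-coding genes, 251 of 11586 (2.17%) were higher and 352 (3.04%) lower. At 2-fold the numbers over all genes were 1443 (9.14%) and 1805 (11.4%). The shares over all genes are the background for the counts of list members below. Most 4-fold calls, 81.8%, had a level listed at 0 in 1 of the libraries, which in these tables can be a failed assignment of reads to an annotated transcript. Over the 14187 genes above 0 in both libraries, 90 (0.634%) were 4-fold higher and 113 (0.797%) 4-fold lower. With assembled transcripts that carry no name added to the gene of their locus, 432 of 17629 (2.45%) were higher and 426 (2.42%) lower. Genes above 0 in both that stayed 4-fold apart with these transcripts included 25 protein-coding and 2 lncRNA genes higher, and 40 protein-coding and 0 lncRNA genes lower.

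The thyrotrope list held 15 genes, of which 14 were compared and Sox14 stayed below 1. Of the 14, 8 were 4-fold higher and 0 lower, against 3.22% and 3.83% of all genes, with a list median of 2.16. The 5 markers among them were chosen with earlier results of these data known, so their part in this count was set beforehand. Beyond the 5 markers these were Gata2, Isl1 and Foxl2. At 2-fold the same 8 were higher and 1 gene was lower. Gata2, a zinc-finger factor that acts on Tshb and Cga, was at 44.9 in the sorted library and 8.20 in the whole gland. Isl1, a LIM homeodomain factor, was at 10.5 against 1.86. Foxl2, a forkhead factor of thyrotropes and gonadotropes, was at 22.1 in the sorted library and listed at 0 in the whole gland, where assembled transcripts in its locus brought it to 4.63, against 27.5 in the sorted library. Of 37 compared pituitary transcription factors, these 3 among them, 5 were 4-fold higher and 2 lower, and 8 were 2-fold higher and 8 lower, against 9.14% and 11.4% of all genes. Pou1f1, the lineage factor of thyrotropes, somatotropes and lactotropes, was at 23.1 against 39.0, a log2 difference of -0.73. Pitx1 was at 53.4 against 32.0. Gata2, Isl1 and Foxl2 thus differed more between the libraries than Pou1f1 or Pitx1. Nmb, a neuromedin peptide, was listed at 0 in the sorted library and at 1.33 in the whole gland, and at 3.73 against 5.79 with assembled transcripts.

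Most genes that respond to thyroid hormone or carry its feedback stood nearer to equality than Dio2 and Trhr. Of 28 genes of the thyroid hormone axis, 20 were compared, and the median was -0.15. Among them 2 were 4-fold higher (Dio2 and Trhr) and 0 lower, against 3.22% and 3.83% of all genes. Dio2 and Trhr are markers chosen with earlier results of these data known, so their part in this count and their lead were set beforehand. Thrb, the receptor isoform that mediates feedback on TSH, was at 11.7 in the sorted library and 11.9 in the whole gland. Thra, the other receptor gene, was at 21.1 against 32.0. Rxrg, a partner of these receptors in thyrotropes, was at 11.3 against 7.04. The corepressor Ncor1 was at 36.7 against 16.9, or 31.9 in the whole gland once assembled transcripts were counted.

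Gonadotrope genes were also higher in the Tshbcre library. Of 20 listed, 15 were compared, 9 were 4-fold higher, 12 were 2-fold higher and 0 were 2-fold lower, with a median of 2.15. Over all genes, 3.22% were 4-fold higher, 9.14% were 2-fold higher and 11.4% were 2-fold lower. Cga, Gata2, Isl1, Foxl2 and Pitx1 stand in this list and in the thyrotrope list. Lhb, the luteinizing hormone beta subunit, was at 2904 (2782 to 3027) in the sorted library and 637 (608 to 666) in the whole gland. Fshb, the follicle-stimulating hormone beta subunit, was at 928 against 180. Nr5a1, the nuclear receptor SF1 that specifies gonadotropes, was at 26 against 5.08, and Tgfbr3l, an inhibin B coreceptor whose locus overlaps Map2k7, was at 413 against 90.5. Bounds did not meet for any of these 4 genes. Lhb was thus more abundant than Tshb in the library sorted on the Tshb driver, and it was at 2198 in the library sorted from Lhbcre adults. Gnrhr, which receives the GnRH signal, was at 28.4 against 8.69. Nr0b1 (DAX1) was at 4.59 against 0.585, but at 4.59 against 2.71 with assembled transcripts. Spp1, the secreted phosphoprotein osteopontin, was at 155 against 27.2. The part of gonadotropes in the levels of Cga, Gata2 and other shared genes was not tested.

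**Figure D2:**
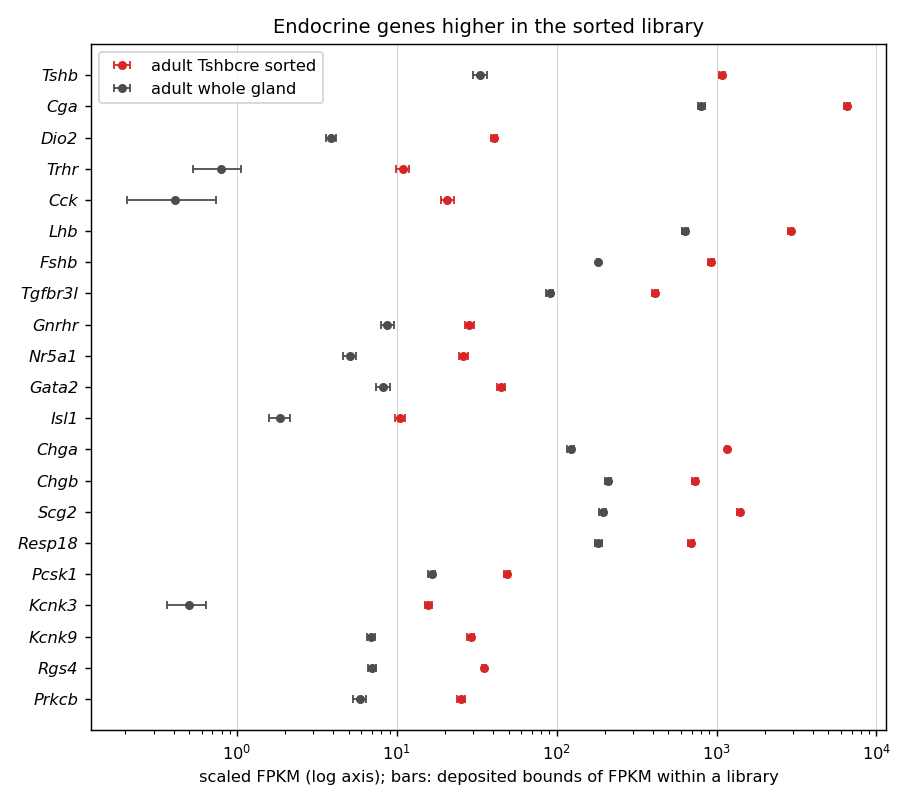
Scaled FPKM (x, log axis) of 21 endocrine genes in the adult Tshbcre sorted library (red) and the adult whole gland (grey); points are the 1 library of each group and bars are its deposited bounds. The genes were chosen among those higher in the sorted library, so level or lower genes of the same lists, such as Pcsk2 and Pcsk6, are not shown. Among the 21 the ratio is smallest for Pcsk1 (48.7 against 16.5) and largest for Cck (20.7 against 0.411).

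Cargo and processing enzymes of secretory granules were unequal. Of 20 genes, 19 were compared, 2 were 4-fold higher and 1 lower, 7 were 2-fold higher and 2 lower, and the median was 0.49. Over all genes the 4-fold shares were 3.22% and 3.83%, and the 2-fold shares 9.14% and 11.4%. The granins led. Chga, chromogranin A, was at 1155 in the sorted library and 122 in the whole gland (1155 and 235 with assembled transcripts). Scg2, secretogranin II, was at 1391 against 193 (1391 and 328 with assembled transcripts). Chgb, chromogranin B, was at 729 against 209, and Resp18, a granule protein, at 689 against 182. Scg5, the chaperone 7B2, was closer, at 263 against 123, and Scg3 closer still, at 83.6 against 58.4. The convertases split: Pcsk1, which cleaves prohormones, was at 48.7 against 16.5, while its relative Pcsk2 was at 15.5 against 17.0. Pcsk6, another convertase, was at 5.56 against 41.1, or 17.3 in the sorted library once assembled transcripts were counted. Qpct, which forms N-terminal pyroglutamate, was at 12.3 against 4.48, while the trimming and amidating enzymes were nearly level, with Cpe at 116 against 102 and Pam at 34.0 against 38.8. Vgf, a neuroendocrine peptide precursor, was at 1.93 against 5.23.

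The general secretory machinery did not share the difference of the granins. Of 29 compared genes for protein folding in the endoplasmic reticulum, 0 were 2-fold apart in either direction, and the median was 0.05. Hspa5, the chaperone BiP, was at 227 in the sorted library and 174 in the whole gland. Of 33 compared genes for glycosylation, which TSH subunits need, 1 was 2-fold higher and 1 lower, with a median of 0.03. Chst8, a sulfotransferase of pituitary glycoprotein hormones, was at 10.1 against 6.47. In the exocytosis list of 41 compared genes, 3 were 2-fold higher and 6 lower, against 9.14% and 11.4% of all genes. The median was 0.21, and with assembled transcripts 6 of 43 were higher and 3 lower. Rab3b, a granule GTPase, was at 22.0 against 8.70, and Rims2, an active-zone scaffold, at 6.90 against 2.47. Snap25, the SNARE, was at 63.0 against 48.3, and Syngr1, a vesicle protein, at 16.4 against 1.01 (16.4 against 7.20 with assembled transcripts). Doc2b, a calcium sensor of release, was listed at 0 in the sorted library and at 4.70 in the whole gland.

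Downstream of Trhr, the list of Gq and calcium signalling genes lay near the background of all genes. Of 31 compared, 2 were 4-fold higher and 1 lower, against 3.22% and 3.83% of all genes, and the median was 0.13. With assembled transcripts, 1 of 32 was higher and 0 were lower. Rgs4, a regulator that shortens Gq signals, was at 35 in the sorted library and 7.00 in the whole gland. Plcb1, the phospholipase that Gq activates, was at 8.69 against 1.27, or 12.3 and 4.37 with assembled transcripts. Prkcb, a calcium-dependent protein kinase C, was at 25.2 against 5.86, a log2 difference of 1.94. The G protein gene Gnaq itself was at 11.2 against 8.60, and Itpr1, the calcium release channel, at 12.6 against 18.4, which turned to 58.5 against 26.1 with assembled transcripts. Stim2, a sensor of stored calcium, was listed at 0 in the sorted library and at 3.76 in the whole gland, but was at 8.51 against 3.76 with assembled transcripts, so its direction turned.

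Among ion channels, the pair of acid-sensitive leak channels of the TASK family stood out. Kcnk3 (TASK1) was at 15.8 in the sorted library and 0.500 in the whole gland, or 2.90 in the whole gland with assembled transcripts. Kcnk9 (TASK3) was at 29.0 against 6.91. Of 29 potassium channels compared, 1 was 4-fold higher, Kcnk3 itself, and 2 were lower, against 3.22% and 3.83% of all genes. The median was 0.06. Kcnh2 (ERG1) was at 16.6 against 22.9, or 23.4 against 22.9 with assembled transcripts, and Kcnma1, the calcium-activated BK channel, at 24.7 against 18.0. The lower calls were Kcnh6 and Kcna3, both listed at 0 in the sorted library, and Kcna3 was no longer 4-fold apart with assembled transcripts, at 2.13 against 4.64. Of 25 compared calcium, sodium and other channels, 3 were 2-fold higher and 1 lower, or 6 and 1 of 32 with assembled transcripts. The 2-fold shares over all genes were 9.14% and 11.4%. The L-type calcium channels Cacna1d (41.7 against 14.2) and Cacna1c (14.3 against 3.67) were higher, though at 24.0 and 7.49 in the whole gland with assembled transcripts. Cacna1a, a P/Q-type channel, was at 3.30 against 7.56 and turned to 11.6 against 7.56 with assembled transcripts.

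Outside these lists, the protein-coding genes farthest above the whole gland among those above 0 in both included Hecw2, Kalrn, Nell1, Col24a1 and Grin3a. Hecw2, a ubiquitin ligase, was at 23.7 in the sorted library and 2.14 in the whole gland. Kalrn was at 12.2 against 0.832. Nell1, a secreted glycoprotein, was at 9.09 against 0.841, and Col24a1, a fibrillar collagen chain, at 14.3 against 2.15. Grin3a, an NMDA receptor subunit, was at 7.94 against 1.06. Drd4, Vegfa and Vegfd were picked after their values were seen. Drd4, a dopamine receptor, was at 4.23 against 0.543, while of 23 compared neurotransmitter receptors 2 were 2-fold higher and 3 lower. These receptor counts lay near the 2-fold shares over all genes, 9.14% higher and 11.4% lower. Vegfa was at 32.2 against 10.5 and Vegfd at 11.1 against 2.14, while 10 of the 16 compared genes of the angiogenesis list were 2-fold lower. In that list 2 genes were 2-fold higher and 0 were 4-fold higher, against 9.14% and 3.22% of all genes. Kdr, the VEGF receptor of endothelium, was at 1.17 against 13.4.

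Of 926 lncRNA genes compared, 20 (2.16%) were 4-fold higher and 20 (2.16%) lower, beside 2.17% and 3.04% of protein-coding genes. The 2 that stayed 4-fold higher above 0 in both were Foxl2os and 4933430M04Rik. Foxl2os, which lies beside Foxl2 on chromosome 9, was at 24.7 in the sorted library and 1.59 in the whole gland, and at 32.8 against 7.10 with assembled transcripts. The gene 4933430M04Rik on chromosome 11 was at 3.55 against 0.0958. Meg3, an imprinted lncRNA, was at 624 against 127 from annotated transcripts, but at 1188 against 1622 with assembled transcripts, so its direction depended on which transcripts were counted. Neat1 was at 4.87 against 12.9. Gas5, which hosts small nucleolar RNAs, was at 20.2 against 66.7.

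Most compared genes of the other hormone-producing cells were lower in the sorted library but not absent. Pomc, the precursor of ACTH and melanocortins, was at 260 (247 to 274) in the sorted library and 1555 (1488 to 1622) in the whole gland. Tbx19, the corticotrope factor TPIT, was at 0.994 against 9.78. Of 7 compared corticotrope genes, 2 were 4-fold lower, against 3.83% of all genes, and the median was -1.38. Of 7 compared melanotrope genes, 2 were 4-fold lower, with a median of -1.37. Prl, the lactotrope hormone, was at 6546 against 17579, and Drd2, the dopamine receptor that restrains it, at 3.12 against 23.8, or 7.25 in the sorted library with assembled transcripts, which is less than 4-fold apart. Ghrhr, the somatotrope receptor for growth hormone-releasing hormone, was at 6.69 against 27.2. Of 9 compared lactotrope genes 6 were 2-fold lower, and of 9 compared somatotrope genes 5, with medians of -1.27 and -1.05. The share of all genes that were 2-fold lower was 11.4%. Among the somatotrope genes, 0 were 4-fold lower and 2 had a positive difference. Gh was at 14806 in the adult sorted library (bounds 14193 to 15420) and was not listed for the adult whole gland, so it has no adult difference. In the pair from postnatal day 7 (P7), described below, Gh was at 3870 in the sorted library against 6031 in the whole gland. Prl and Cga thus stood at the same level in the adult sorted library, where Gh was higher than either. In a bulk library, fewer cells of a type and less RNA per cell cannot be told apart.

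**Figure D3:**
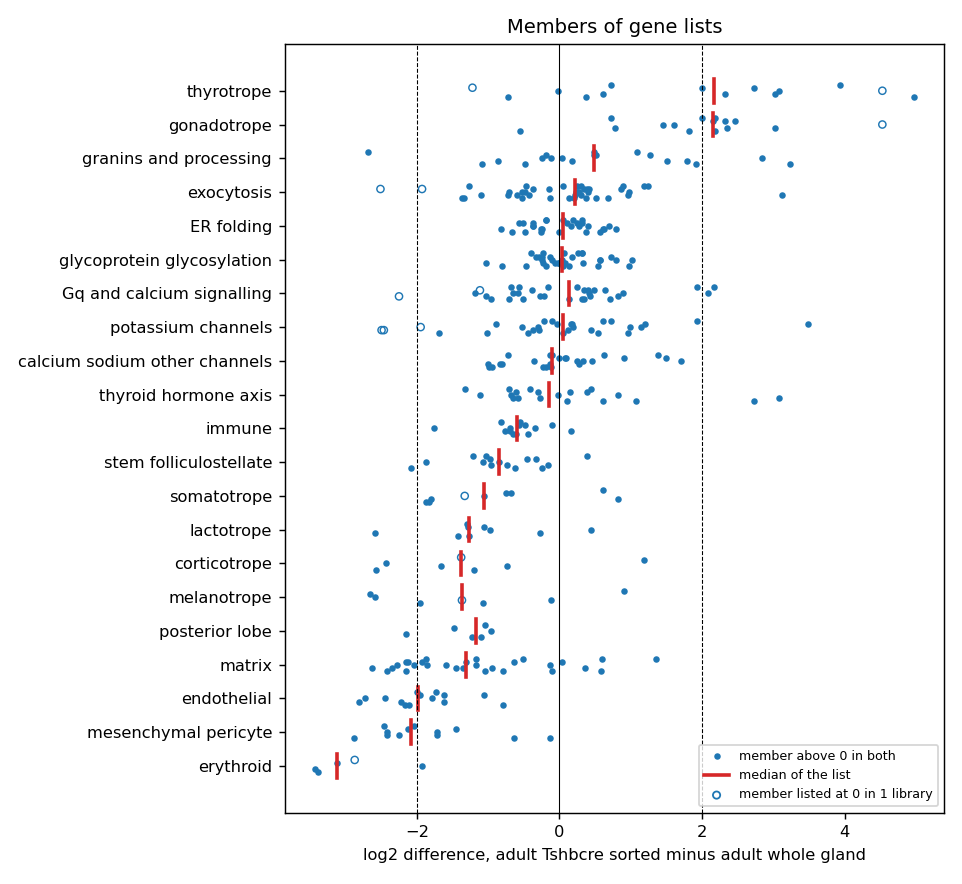
Log2 difference, adult Tshbcre sorted minus adult whole gland (x), of the compared members of 21 gene lists (y); each dot is a gene, open where it is listed at 0 in 1 library, and red bars are list medians. The medians run from 2.16 for thyrotrope genes to -3.13 for erythroid genes, and the folding and glycosylation lists sit at 0.05 and 0.03.

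Endothelial, mesenchymal and erythroid genes were lower in the sorted library. Over all genes, 3.83% were 4-fold lower and 11.4% were 2-fold lower. Of 14 compared endothelial genes, 6 were 4-fold lower and 13 were 2-fold lower, with a median of -1.98 and a summed level of 26.6 scaled FPKM in the sorted library against 169.9 in the whole gland. Plvap, a protein of fenestrated capillaries, was at 8.09 against 63.1, and Kdr, the VEGF receptor, at 1.17 against 13.4. Of 12 compared mesenchymal and pericyte genes, 7 were 4-fold lower, with a median of -2.08. Mgp, a matrix inhibitor of calcification, was at 5.17 against 44.2, Rgs5, a pericyte marker, at 3.11 against 21.6 and Lum, a small proteoglycan, at 0.483 against 6.04. Dcn, another proteoglycan, was at 6.62 against 7.36, but at 6.62 against 52.8 with assembled transcripts. Of 29 compared matrix genes, 8 were 4-fold lower and 18 were 2-fold lower. Col1a1 was at 1.12 against 10.3 and the basement membrane chain Col4a1 at 3.89 against 20.8. Of 5 compared erythroid genes, 4 were 4-fold lower. Hba-a1, an alpha globin whose reads can be shared with its copy Hba-a2, was at 33.5 against 360, and Hbb-bt, a beta globin, at 22.0 against 200.

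Genes for several insulin-like growth factor binding proteins, which hold these factors outside cells, were lower. Of 13 compared genes of this list, 3 were 4-fold lower and 0 higher, against 3.83% and 3.22% of all genes. Igfbp3 was at 4.60 in the sorted library against 33.6 in the whole gland and Igfbp4 at 2.56 against 23.3. Igfbp7 was listed at 0 against 19.9, also with assembled transcripts. Igfbp5, the most abundant member, was at 148 against 164.

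Stem, folliculostellate and immune genes were nearer to equality than endothelial genes. Of 15 compared stem and folliculostellate genes, 5 were 2-fold lower, with a median of -0.84 and a summed level of 108 against 209. Of these 5, 1 was 4-fold lower, and with assembled transcripts 0 genes of the list were. Over all genes the 2-fold and 4-fold lower shares were 11.4% and 3.83%. Sox2, the stem cell factor, was at 5.72 in the sorted library and 6.95 in the whole gland, and Cyp2f2, a folliculostellate enzyme, at 33.2 against 71.0. Of 14 compared immune genes, 1 was 2-fold lower, Cd74, against 11.4% of all genes, and the median was -0.59. C1qb, a complement gene of macrophages, was at 11.2 against 18.8. In the P7 pair the medians were -2.26 for stem and folliculostellate genes and -2.09 for immune genes. The P7 sorted library had Sox2 at 0.908 and C1qb at 0.509. The part of these cells in the differences between the adult libraries was not tested.

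Transcript use was examined in the 1397 genes with at least 2 annotated transcripts and 10 scaled FPKM or more in both libraries. A transcript share differed by 50 percentage points or more in 92 of them (6.59%). In 77 of these 92 genes a switching transcript was listed at 0 in 1 library, and the annotated transcripts often differ by few bases, so the assignment of reads is uncertain. Among the most abundant was Pam, the amidating enzyme, whose transcript of 3361 nt made up 33.8% in the sorted library and 100% in the whole gland. In Sdhc, a subunit of succinate dehydrogenase, where both transcripts were above 0 in both libraries, the transcript of 1179 nt made up 87.5% against 9.78%. Shares were closer for Tshb, Cga and Prl. The Tshb transcript of 557 nt made up 98.3% in the sorted library and 97.4% in the whole gland, the Cga transcript of 691 nt 74.6% and 80.0%, and the Prl transcript of 892 nt 68.6% and 67.9%. For Trhr the transcript of 3976 nt made up 68.6% against 34.4%, but the gene was at 0.79 scaled FPKM in the whole gland. For Cck, at 0.411 there, the transcript of 691 nt made up 100% in the sorted library and 0% in the whole gland, and that of 943 nt 0% and 100%.

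The same contrast at postnatal day 7 (P7), with 5 pooled Tshbcre ROSAYFP glands against 8 nontransgenic glands, shares no library with the adult pair. At P7, 534 of 16370 genes (3.26%) were 4-fold higher in the sorted library and 1001 (6.11%) lower. Of 368 genes 4-fold higher in adults among the 14250 compared at both ages, 78 were 4-fold higher at P7, which is 21.2% of the adult and 20.9% of the P7 calls. Of 468 lower in adults, 136 were lower at P7, or 29.1% and 17.0%. Among all 14250 genes, 373 were 4-fold higher and 802 4-fold lower at P7. Restricted to genes above 0 in all 4 libraries that stayed 4-fold apart with assembled transcripts, 19 of 44 higher genes (43.2%) and 33 of 46 lower genes (71.7%) were 4-fold apart at P7. The P7 share over all genes above 0 in all 4 libraries was not calculated, so these percentages have no background beside them. Tshb was at 3000 in the P7 sorted library and 61.0 in the P7 whole gland, and Dio2 at 164 against 9.59. Cck was at 23.9 against 0.341 and Trhr at 14.6 against 1.36. The granule genes kept their direction, with Chgb at 694 against 79.9 and Resp18 at 977 against 97.7. Gonadotrope genes were less uniform. Lhb was at 1278 against 312 and Fshb at 482 against 85.1, but Gnrhr was at 8.91 against 9.17. Nr5a1 was listed at 0 in the P7 sorted library and at 6.09 in the P7 whole gland. Of the named genes above 0 in all 4 libraries, 62 of 64 had the same sign at both ages, and the exceptions were Eya1 and Plcb1. Over the 44 higher and 46 lower genes above, which were not picked by name, 5 and 7 had the opposite sign at P7. Plcb1 was at 1.35 against 2.03 at P7. No difference between the ages was tested.

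**Figure D4:**
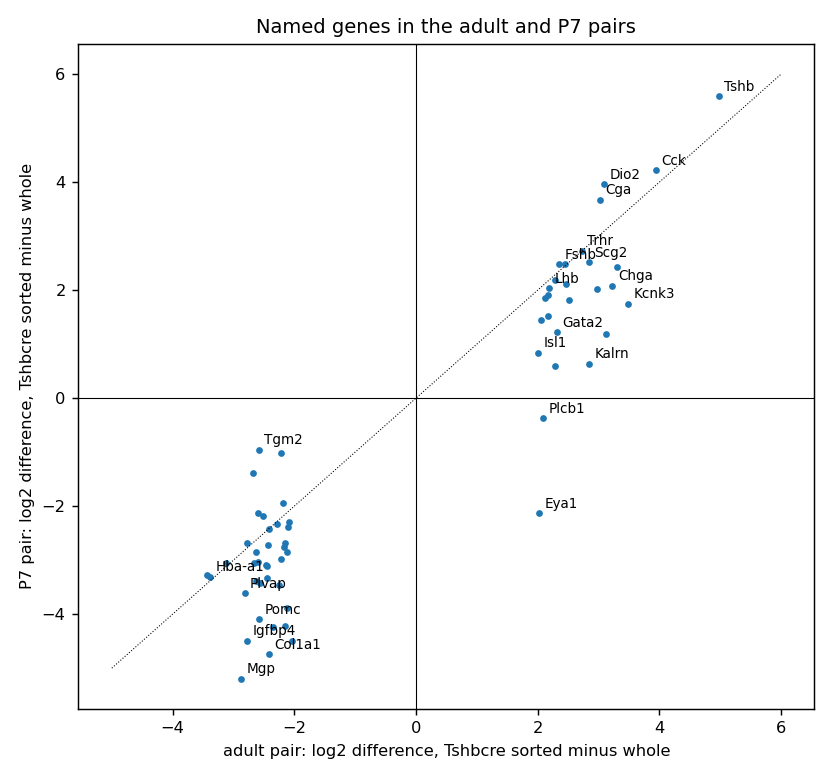
Log2 difference, Tshbcre sorted minus whole gland, in the adult pair (x) and the P7 pair (y) for 64 named genes above 0 in all 4 libraries; each dot is a gene and the dotted line is equality. Tshb lies at 4.98 and 5.60, Mgp at -2.87 and -5.19, and Eya1 at 2.03 and -2.13.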

How the data were processed

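RNA of adult Tshbcre sorted cells and of an adult whole gland was compared, with the P7 pair beside it. The submitters' processing notes name FastQC, Bowtie2, Cufflinks and mm39, with no version. The deposited tables hold 1 line per transcript, with the FPKM the authors computed and the bounds of its interval. Their coverage signal, also deposited, was FPKM times 1 constant per file, and the ratio of these constants gave relative depth. Numbers of reads and the use of strand are not given in the sources, so overlapping genes cannot be told apart.

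A gene's value was the sum of FPKM over transcripts of its name. Each library was scaled by a median of ratios, taken against geometric means of the 5808 genes that reached 1 FPKM in every one of the 6 libraries. Differences used a pseudocount of 1. Genes with a failed estimate in either library, 9 in all, were left out. Where stated, assembled unnamed transcripts of 200 nt or more were added where a locus held 1 named gene. Biotypes came from RefSeq and GENCODE names on GRCm38, and 1599 of the gene names did not match. The comparison, its markers and the gene lists were chosen with earlier results of these data known. Genes named were the markers, list members 4-fold apart or best known, the 20 protein-coding and 5 lncRNA genes farthest apart in each direction above 0 in both, and transcript switches of abundant genes. Sdhc, Drd4, Vegfa and Vegfd were chosen after their values were seen, and the 19 promoter genes with their levels known. The other named genes were not chosen blind to the values either, as earlier results were known. The calculation was run on simulated data, the whole gland against itself with known folds set for some genes. Those data held no failed assignment of reads and no spread between libraries. They therefore cannot speak to calls with a level listed at 0. Alternatives changed the pseudocount, scaling, filter and added transcripts. Python 3.11.15, pandas 2.3.3 and numpy 2.4.6 were used.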

Additional observations from a re-analysis of the deposited data

Results flagged for a closer look

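Eya1, a transcriptional coactivator of pituitary development, was higher in the sorted library in adults and lower in it at P7. It was at 14 scaled FPKM in the adult sorted library and 2.67 in the adult whole gland, a log2 difference of 2.03. At P7 it was at 3.91 against 20.5, a log2 difference of -2.13. With assembled transcripts the adult levels were 42.5 and 16.1. Each age has 1 library per side, and the difference between the ages was not tested.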

How the results depend on the processing

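With 1 library per side no replicate could be left out. No paired analysis was possible because each group is 1 library and no test was run. Depth limits genes near 1 scaled FPKM, whose bounds are wide. The 4-fold counts of 508 higher and 605 lower genes became 1074 and 1299 with a pseudocount of 0.1, 162 and 148 with a pseudocount of 5, and 90 and 113 over genes above 0 in both libraries. Over genes with an annotated transcript of 200 nt or more, an alternative chosen after seeing the data, they were 290 and 392. The other settings kept both counts within 1.5 times: FPKM as deposited, equal sums, ratios over the 2 libraries, no filter, a filter at 5, assembled transcripts and failed estimates kept. The median difference of all genes was -0.14 with FPKM as deposited and 0.15 with equal sums, against -0.02. The 92 transcript switches became 340 with genes at 5 scaled FPKM or more and 268 with a share difference of 30 percentage points. With assembled transcripts, 5 of the named genes 4-fold apart turned direction: Epcam (0.46), Meg3 (-0.45), Snhg12 (0.83), Snhg3 (0.36) and Stim2 (0.999). So did Cacna1a, Itpr1, Kcnh2 and Map2k7, which were less than 4-fold apart. The added transcripts alone make these turns, by construction. The sorted library listed 463893 unnamed transcripts of any length and the whole gland 277846, so the additions need not be even between them. The part of this imbalance in the turns was not tested. No list with a median of 1 or more in size changed sign under these settings.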

Other observations

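Clock genes of the adult pair were mixed. Dbp, an output factor of the clock, was at 18.7 in the sorted library and listed at 0 in the whole gland, also with assembled transcripts, and Nr1d1 was at 16.7 and listed at 0, or 16.7 against 10.8 with assembled transcripts. Rorb, a nuclear receptor, was at 12.6 against 3.40. Clock was at 10.9 against 7.44. Of 20 compared clock genes, 2 were 4-fold higher and 0 lower, against 3.22% and 3.83% of all genes, with a median of 0.35. The sources give no time of day.

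Notch and Wnt genes leaned to the whole gland, with 2 of 30 compared genes 2-fold higher, 7 lower and a median of -0.54. The 2-fold shares over all genes were 9.14% and 11.4%. Notch1 was listed at 0 in the sorted library and at 6.94 in the whole gland, and Notch2 was at 5.30 against 10.3. Lef1, a nuclear partner of Wnt signalling, was at 1.74 against 0.309. Of 23 compared immediate early and heat shock genes, 0 were 4-fold apart and 4 were 2-fold lower, against 11.4% of all genes. Fos was at 74.9 against 89.7, and Hspa1a, which shares reads with its copy Hspa1b, at 49.4 against 177. In the P7 pair Hspa1a was at 154 against 93.6.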
